A study of Saccharomyces cerevisiae with 12 samples.

Results

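The 37 genes described here are the aminoacyl-tRNA synthetase genes of Saccharomyces cerevisiae and ARC1. They come from a list of systematic names that sets cytosolic beside mitochondrial enzymes, although some of the genes serve both compartments. The first 23 form the cytosolic list and the last 14 the mitochondrial list, out of 7126 gene IDs in the count files. The rule that names them uses no measured value. All 37 had counts in every library and passed the filter on low counts, which left 6003 genes to be tested. Poly(A)-enriched mRNA was sequenced from total lysates and from the polysomal fractions of sucrose gradients, in a wildtype and in ΔES27Lb, with 3 replicates of each, so that 12 libraries fall into 4 groups. Both strains are derivatives of yJD1045, in which the chromosomal rDNA is deleted and all rRNA comes from a plasmid. In the wildtype the plasmid carries the complete rRNA sequence and in ΔES27Lb a 25S rRNA gene without the b-arm of expansion segment ES27L. Both plasmids also carry a point mutation in the small-subunit rRNA that gives resistance to hygromycin B. Both strains were grown in YPD, a rich medium, to an OD of 0.8, and neither has the chromosomal rDNA array of an ordinary yeast strain. The paper's general growth conditions and its RNA isolation add hygromycin B to the YPD, while its polysome profiling names YPD only. The question of the sequencing was whether ribosomes without this arm translate a different set of mRNAs. For the mRNAs below this was read from P/T, the ratio of polysomal to total mRNA on a log2 scale. Below, a culture means the total and the polysomal library of a strain with the same replicate number, a pairing that the labels do not state. The labels also do not say whether the replicates were grown separately. If they were not, p-values cover only the spread between these samples.

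Aminoacyl-tRNA synthetases join each amino acid to its tRNA and so supply every ribosome with charged tRNA. Yeast mitochondria have their own ribosomes and tRNAs, which are served by a second set of enzymes encoded in the nucleus, made in the cytosol and imported. Some nuclear genes serve both compartments from one locus, as ALA1, GRS1, HTS1 and VAS1 do for alanine, glycine, histidine and valine. Uncharged tRNA, which builds up when amino acids or synthetases are short, activates the kinase Gcn2. Gcn2 in turn raises the translation of GCN4, whose product activates genes of amino acid synthesis and several synthetase genes.

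The libraries held 15050764 to 21532842 counts on 6269 to 6688 genes. The lowest count of any member was 122, for MSM1 (YGR171C), which had 122 to 579 per library. DIA4 (YHR011W) had 144 to 526, with the 144 in wildtype total replicate 1. Both genes lay far above the 3 counts taken as the floor of detection, so that the spread between replicates limits precision more than counting does. Noncoding RNAs of the nucleus (83 snoRNA, snRNA and telomerase RNA genes) summed to 338.7 to 595.4 CPM (counts scaled to the library total) in the 6 total libraries and to 80.46 to 102.2 in the 6 polysomal libraries, so the pools differ as their labels say. The deletion lies inside an rRNA and could not be checked from counts per gene. These were bulk libraries, in which a change in RNA per cell and a change in the share of cells that make it cannot be told apart. A level below is a share of its library, as CPM after TMM scaling, divided by the length of the coding sequence (CDS) in kb, so that genes can be compared.

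The sequences of both lists differ in 2 features that the choice of members did not use. Over the first 30 residues of the proteins, the net charge (lysine and arginine minus aspartate and glutamate) was 2 or more in 14 of 14 mitochondrial enzymes, with a median of 4.5, and in 7 of 23 cytosolic proteins, with a median of 0. Mitochondrial import signals are known to be rich in basic and poor in acidic residues. HTS1, VAS1 and YNL247W had no acidic residue in this window, and their net charges were 4, 5 and 6. YNL247W encodes the cysteine enzyme, and the mitochondrial list holds no enzyme for cysteine, histidine or valine. GRS1 had 2 and ALA1 had 3. HTS1 and VAS1 are known to make a mitochondrial form from an upstream start codon, while that of ALA1 and GRS1 begins at a non-AUG codon upstream of the annotated start and is thus outside this window. The second feature is the core of the Gcn4 binding site, TGACTC on either strand (GAGTCA when read on the other), in the 250 bases before the start codon. It was found for 9 of 23 cytosolic members (39.1%) and 0 of 14 mitochondrial members, against 375 of 6007 nuclear genes (6.2%) and 13 of 20 amino acid biosynthesis genes listed as Gcn4 targets (65.0%). The matches are shown because the strain differences of these genes are set beside those of the biosynthesis genes below. They are read 5′ to 3′ on the strand of the gene from the RefSeq R64 genome of strain S288C, with 11 bases on each side where the window holds them and the match in capitals:
ALA1: attaaggaactTGACTCtttctttcaag
ILS1: cgaaacaatgaTGACTCttaagcatgaa
KRS1: gaatgatgaaaTGACTCttaatgaactt
THS1: tactgtttaaaTGACTCttaccttgtga
VAS1: tttttttagaaGAGTCAcccatacagcc
YDR341C: aagtgtctaatGAGTCAgttatttcttt
YNL247W: ttcatcgcgaaGAGTCAaaagacattat
YHR020W: aagcgatgcttGAGTCActgaatgtctt
ARC1: tagagtttcaaGAGTCA
The match of ARC1 touches the start codon and that of ALA1 ends 41 bases before it, while the other 7 end 80 to 198 bases before it. A match in these letters is a description and not a measured binding site.

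Messenger RNAs of the cytosolic list were far more abundant than those of the mitochondrial list. The median level of the 23 cytosolic members was 129.8 to 315.1 CPM per kb over the 12 libraries, that of the 14 mitochondrial members 11.31 to 18.0, and that of the 5695 tested genes with a CDS 33.83 to 36.51. The ratio of both medians lay between 7.21 (wildtype total, replicate 3) and 23.5 (wildtype polysomal, replicate 2). In each of the 12 libraries the lowest cytosolic member other than GRS2 lay above the highest mitochondrial member. The lowest was YNL247W (the cysteine enzyme) or CDC60 (leucine), at 45.24 to 112.6 CPM per kb. The highest mitochondrial member was MSK1 (lysine) in 11 libraries and SLM5 (asparagine) in ΔES27Lb polysomal replicate 1, at 21.51 to 36.98. Together the cytosolic members took 0.675% to 1.51% of all counts of a library and the mitochondrial members 0.0204% to 0.0597%.

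**Figure D1:**
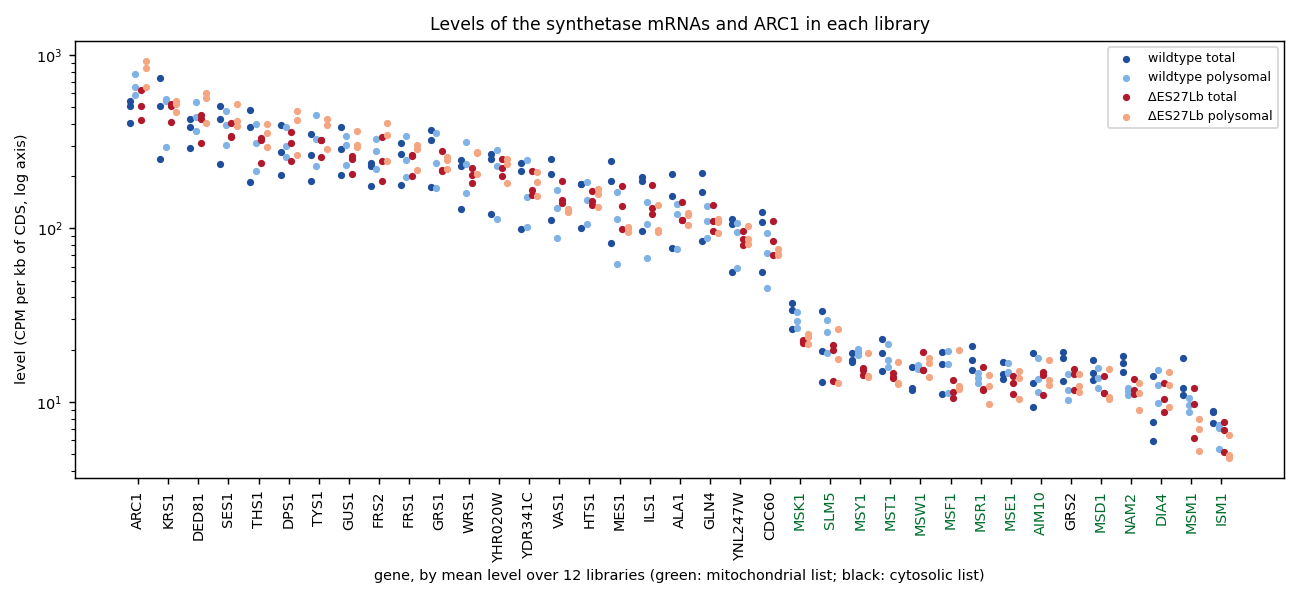
Level of each of the 37 genes in each of the 12 libraries, as CPM per kb of CDS on a log axis, with the genes in order of their mean and the 4 groups in colours (3 points per group). All cytosolic genes except GRS2 lie above the mitochondrial genes.

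ARC1 (YGL105W) had the highest mean level over the 12 libraries (620.8 CPM per kb). In wildtype total mRNA the lysine enzyme KRS1 had the higher mean (497.5 ± 239.8 against 486.0 ± 71.7, SD, n = 3). ARC1 encodes no enzyme but a cofactor that holds the methionine enzyme Mes1 and the glutamate enzyme Gus1 in one complex and helps them bind tRNA. Its level was 506.4, 545.2 and 406.3 CPM per kb in wildtype total mRNA, 655.9, 772.8 and 588.0 in wildtype polysomal mRNA, 423.8, 506.3 and 624.7 in ΔES27Lb total mRNA and 655.4, 839.3 and 926.0 in ΔES27Lb polysomal mRNA. In the wildtype all polysomal libraries lay above all total libraries, as they did in ΔES27Lb. The partners were lower in every library: ARC1 was 2.08 to 9.71 times MES1 (median 5.36) and 1.32 to 2.78 times GUS1 (median 2.2). The ratio of ARC1 to MES1 was 3.3 ± 1.47 in wildtype total and 6.64 ± 2.43 in wildtype polysomal mRNA, and 4.11 ± 1.87 and 8.15 ± 1.6 in ΔES27Lb (mean ± SD, n = 3). The messages of ARC1 and its partners stood further apart in the polysomal pool than in the total pool in each of the 6 cultures. ARC1 has a CDS of 1131 nucleotides, against 2127 for GUS1 and 2256 for MES1, and P/T fell with CDS length (below). With that trend taken out by an offset, fitted log2 P/T in the wildtype was 0.36 for ARC1, 0.36 for GUS1 and -0.21 for MES1. In ΔES27Lb these were 0.51, 0.62 and -0.20.

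FRS1 (YLR060W) and FRS2 (YFL022C) encode the β and α subunits of the phenylalanine enzyme, which pair in equal numbers in the holoenzyme. Their levels were close, with a ratio of FRS1 to FRS2 of 0.741 to 1.35 and a median of 0.961. The ratio was 1.17 ± 0.168 in wildtype total and 0.943 ± 0.0866 in wildtype polysomal mRNA, and 0.978 ± 0.164 and 0.819 ± 0.073 in ΔES27Lb (mean ± SD, n = 3). In the wildtype the total libraries held 1.35, 1.12 and 1.02 and the polysomal libraries 0.886, 1.04 and 0.901, so that only total replicate 3 and polysomal replicate 2 crossed.

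GRS1 (YBR121C) and GRS2 (YPR081C) are paralogs for glycine, whose proteins were identical at 61.0% of 607 aligned residues. The enzyme of GRS2 is annotated as putative. GRS1 was the main gene, at 170.1 to 371.1 CPM per kb, and GRS2, which is known as dispensable under ordinary growth, lay among the mitochondrial genes at 10.32 to 19.48. The ratio was 9.6 to 30.2 (median 19.1). How reads that match both were counted is not given in the sources used here, so the level of GRS2 is uncertain.

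For 14 amino acids a mitochondrial enzyme has its own gene beside the cytosolic one, and the cytosolic message was the more abundant in each library and each pair. Of the mitochondrial enzymes, those of DIA4 (serine) and AIM10 (proline) are annotated as putative. The smallest median ratio over the 12 libraries was that of the leucine enzymes CDC60 and NAM2, at 7.0 (3.04 to 8.23). NAM2 is also known to take part in the splicing of mitochondrial introns. The largest was that of the serine enzymes SES1 and DIA4, at 32.8 (16.7 to 85.1), with DIA4 at 5.985 to 15.33 CPM per kb. The other pairs had medians between 13.4 (arginine, YDR341C and MSR1) and 24.3 (aspartate, DPS1 and MSD1). The proteins of most pairs were distant from each other. Identity ran from 19.1% of aligned residues for the proline enzymes (YHR020W and AIM10) to 59.2% for the arginine enzymes.

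The summed level of the cytosolic members varied between libraries of one group. It was 13090, 11380 and 6456 CPM in wildtype total mRNA, 9982, 12430 and 7102 in wildtype polysomal mRNA, 8540, 10780 and 9664 in ΔES27Lb total mRNA and 9169, 11340 and 11680 in ΔES27Lb polysomal mRNA. Wildtype replicate 3 was the lowest in both of its pools. The mitochondrial members summed to 382.7, 345.9 and 464.2 CPM in wildtype total mRNA, 363.2, 340.9 and 406.5 in wildtype polysomal mRNA, 328.3, 333.9 and 294.4 in ΔES27Lb total mRNA and 377.5, 304.4 and 273.1 in ΔES27Lb polysomal mRNA. Here wildtype replicate 3 was the highest in both pools, so this library pair had the smallest distance between the lists. The cytosolic sum was compared over the 12 libraries with 5153 genes tested outside both lists that had enough counts. Those whose log2 CPM followed it most closely were GCD11 (the γ subunit of initiation factor eIF2, Pearson r = 0.973), CCT5 (a subunit of the cytosolic chaperonin, 0.972) and SSB1 (a ribosome-bound Hsp70, 0.971). These r are descriptions over libraries that share cultures and groups.

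**Figure D2:**
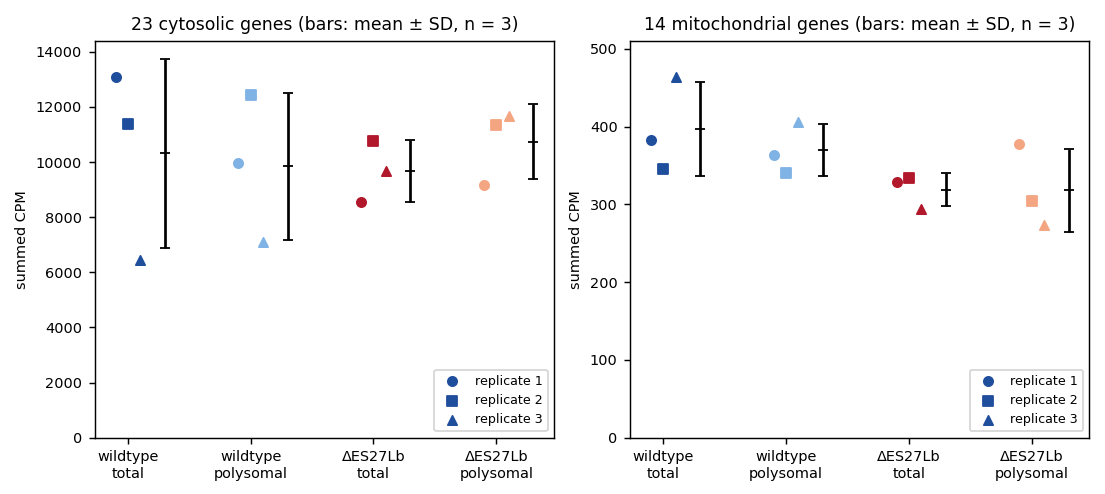
Summed CPM of the 23 cytosolic genes (left) and the 14 mitochondrial genes (right) in each library, by group, with symbols for the replicate and bars for the mean ± SD (n = 3). Wildtype replicate 3 (triangles) is lowest on the left and highest on the right.

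In the wildtype, no member passed the threshold for P/T in the fit without a replicate block. The medians of the fitted log2 P/T were -0.08 for the cytosolic and -0.03 for the mitochondrial members, beside -0.06 for all 6003 genes. Of the 6003 genes, 7 were called by edgeR's quasi-likelihood test at an adjusted p of 0.05 (0.117%), none of them a member. At an unadjusted p of 0.05 there were 2 members (GRS2 and NAM2) and 1709 genes. DESeq2 called 749 of 6237 genes (12%) and again 0 members. When the total and polysomal libraries of the same replicate number were paired as a culture (the replicate block), 1950 genes were called (32.5%), 1013 higher in polysomes (16.9%) and 937 lower (15.6%). Of the members, 1 was then higher (ARC1) and 3 were lower (ILS1, VAS1 and NAM2), which is 4 of 37 against 32.5% of all genes. With the CDS length as an offset as well, 197 of 5695 genes were called (3.46%) and 0 members.

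The members with the highest P/T that kept 1 sign in the 3 wildtype cultures were ARC1, DIA4, FRS2, TYS1 and DED81. Log2 P/T of ARC1 was 0.37, 0.50 and 0.53 in the 3 cultures, close to each other and all above 0. The fitted log2 P/T was 0.47 ± 0.25 (SE, adjusted p = 0.228 by edgeR) and 0.47 with the block (adjusted p = 0.0424). FRS2, TYS1 (tyrosine) and DED81 (asparagine) also kept to a narrow range: FRS2 had 0.28, 0.46 and 0.33, TYS1 0.31, 0.35 and 0.29, and DED81 0.19, 0.34 and 0.32. DIA4 reached the highest mean of all members (0.52 ± 0.49, SD, n = 3) from 1.06, 0.37 and 0.11, so its place rests on culture 1. The adjusted p of these 4 genes lay between 0.389 and 0.506 by edgeR.

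Low P/T was found for several of the longest messages. ILS1 (YBL076C, isoleucine) had levels of 196.8, 188.6 and 96.21 CPM per kb in wildtype total mRNA and 105.9, 142.8 and 67.21 in polysomal mRNA, so that each culture had less in polysomes. Its log2 P/T was -0.89, -0.40 and -0.52, and the fit gave -0.61 ± 0.34 (SE, adjusted p = 0.255 by edgeR) and -0.60 with the block (adjusted p = 0.0201). VAS1 (YGR094W, valine, with the longest CDS of all members at 3315 nucleotides) went from 250.6, 206.9 and 112.1 CPM per kb in total to 130.8, 167.1 and 88.42 in polysomal mRNA. Its log2 P/T of -0.94, -0.31 and -0.34 gave a fit of -0.56 ± 0.31 (SE, adjusted p = 0.256) and -0.53 with the block (adjusted p = 0.048). Both genes were below 0 in each culture, and culture 1 was the lowest in both.

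NAM2 (YLR382C), the longest mitochondrial message but for ISM1, had 16.88, 14.86 and 18.46 CPM per kb in total and 10.94, 11.5 and 12.05 in polysomal mRNA of the wildtype. The pools did not overlap. The log2 P/T of -0.63, -0.37 and -0.62 gave a fit of -0.54 ± 0.19 (SE, adjusted p = 0.105 by edgeR) and -0.54 with the block (adjusted p = 0.0349). MES1 (log2 P/T -1.10, -0.21 and -0.39) and the mitochondrial methionine enzyme MSM1 (-0.77, -0.20 and -0.47) were likewise below 0 in each culture, with adjusted p of 0.341 and 0.25. The block gave MES1 an adjusted p of 0.0582. Counting signs alone, 5 cytosolic members were above 0 in all 3 wildtype cultures (DED81, FRS2, TYS1, WRS1 and ARC1) and 6 below (ALA1, CDC60, GRS2, ILS1, MES1 and VAS1), while 4 mitochondrial members were above (MSF1, MSW1, MSY1 and DIA4) and 5 below (MSD1, MSM1, MSR1, NAM2 and ISM1). Of all 6003 genes, 1942 were above and 2069 below in all 3.

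Within the list, P/T followed the length of the coding sequence. Over the 37 members Spearman's rho of the fitted log2 P/T with CDS length was -0.82 in the wildtype (-0.83 in the cytosolic and -0.77 in the mitochondrial list), beside -0.66 over 5695 tested genes. These are correlations across genes, which share libraries and are not replicates. The 4 cytosolic members under 1500 nucleotides (ARC1, TYS1, WRS1 and SES1) had a median log2 P/T of 0.28, the 12 from 1500 up to 2250 had -0.06 and the 7 longer ones -0.45. The same bands gave 0.14, -0.13 and -0.44 for the 6, 6 and 2 mitochondrial members and 0.29, -0.25 and -0.59 for all genes. In each wildtype culture the rho of the cytosolic members was between -0.84 and -0.76. When the trend with length was taken out by an offset, VAS1 moved to 0.04, ILS1 to -0.03 and NAM2 to -0.08 (-0.07 with the block), while ARC1 kept 0.36 (adjusted p = 0.534 by edgeR, and 0.102 with the block). ARC1 was not alone in this: with the offset FRS2 had 0.49, DED81 0.48, DIA4 0.45 and GUS1 0.36. The cytosolic median was then 0.17.

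**Figure D3:**
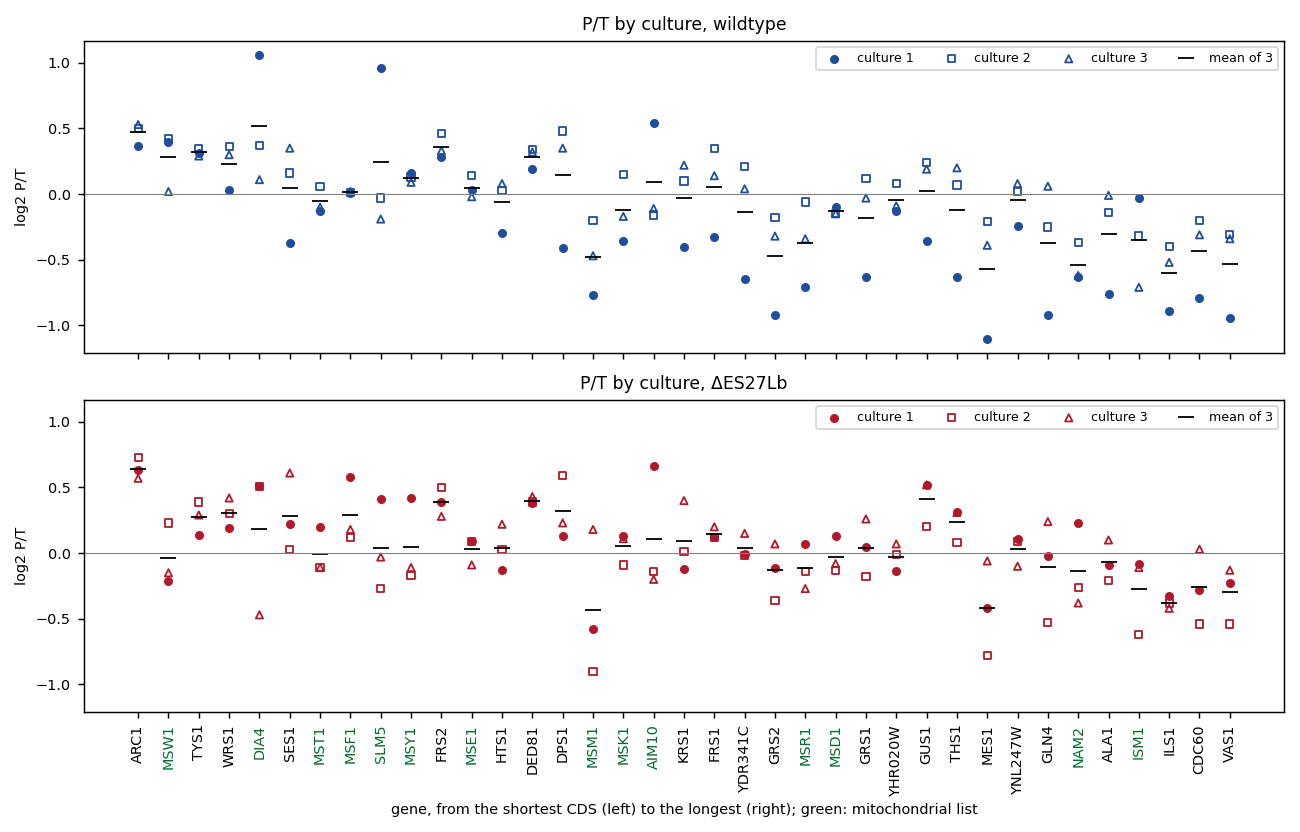
Log2 P/T of the 37 genes in each of the 3 wildtype cultures (top) and the 3 ΔES27Lb cultures (bottom), with bars for the mean of 3 and the genes ordered from the shortest CDS to the longest. Values fall from left to right, and culture 1 of the wildtype (filled circles) is the lowest for most long cytosolic genes.

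Culture 1 of the wildtype stood apart from the other cultures. The median log2 P/T of the cytosolic members was -0.40, 0.10 and 0.09 in the 3 wildtype cultures (mean -0.07 ± 0.28, SD, n = 3) and 0.05, 0.03 and 0.23 in the 3 ΔES27Lb cultures (0.10 ± 0.11). That of the mitochondrial members was -0.01, -0.01 and -0.13 in the wildtype (-0.05 ± 0.07) and 0.17, -0.13 and -0.11 in ΔES27Lb (-0.03 ± 0.17), while the median over all genes stayed between -0.07 and -0.01 in the 6 cultures. Apart from the value of -0.40 the strains overlapped in the cytosolic list, and without replicate 1 of the wildtype the fitted cytosolic median for the wildtype was 0.16 in place of -0.08. In that culture the mitochondrial ribosomal proteins (79 genes) had a median of 1.08, against 0.29 to 0.61 in the other 5.

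In ΔES27Lb ARC1 had the highest P/T of all members without the length offset, and no other member was called in any fit. With the offset GUS1 had 0.62 and ARC1 0.51. No gene of 6003 was called without the block (0.0%), at a smallest adjusted p of 0.0653 over all genes. At an unadjusted p of 0.05 there were 898 genes and 1 member (ARC1), and DESeq2 called 77 of 6371 genes (1.21%) and 0 members. With the block, 418 genes were called (6.96%), 173 of them higher (2.88%), and ARC1 was the only member among them. With block and length offset 19 of 5695 genes were called (0.334%) and 0 members. Log2 P/T of ARC1 was 0.63, 0.73 and 0.57, and the fit gave 0.64 ± 0.25 (SE, adjusted p = 0.296 by edgeR) and 0.64 with the block (adjusted p = 0.0461). These values are all above the 3 wildtype values.

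GUS1 (YGL245W) followed with 0.52, 0.20 and 0.52, from levels of 206.9, 262.8 and 252.6 CPM per kb in total and 296.1, 301.7 and 363.4 in polysomal mRNA. DED81 had 0.38, 0.39 and 0.43, FRS2 0.39, 0.50 and 0.28, and DPS1 (aspartate) 0.13, 0.59 and 0.23. The adjusted p of these 4 genes was 0.432 to 0.56. The lowest mean was that of MSM1, from the mixed values -0.58, -0.90 and 0.18. Of the members below 0 in each culture, MES1 had -0.42, -0.78 and -0.06, ILS1 -0.33, -0.38 and -0.42, VAS1 -0.23, -0.54 and -0.13 and ISM1 (mitochondrial isoleucine enzyme) -0.08, -0.62 and -0.11, with adjusted p of 0.517 to 0.602. Of these, ILS1 varied least between cultures. In ΔES27Lb 10 cytosolic members were above 0 in all 3 cultures and 3 below, and 1 mitochondrial member was above and 1 below, beside 1543 and 1848 of 6003 genes.

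In the fit over 5695 genes the relation with length was weaker in ΔES27Lb (rho -0.42) than in the wildtype (-0.66). By culture the rho over these genes was -0.15, -0.57 and -0.36 in ΔES27Lb. In the wildtype it was -0.61, -0.54 and -0.67, so the strains overlapped. The fitted rho in ΔES27Lb was -0.77 in the cytosolic and -0.52 in the mitochondrial list. By culture the cytosolic rho was -0.63, -0.77 and -0.72. The mitochondrial rho was -0.23, -0.61 and 0.01, and so was close to 0 in culture 3. The length bands of the cytosolic members had medians of 0.30, 0.12 and -0.29, those of the mitochondrial members 0.07, 0.01 and -0.20 and those of all genes 0.18, -0.13 and -0.42.

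**Figure D4:**
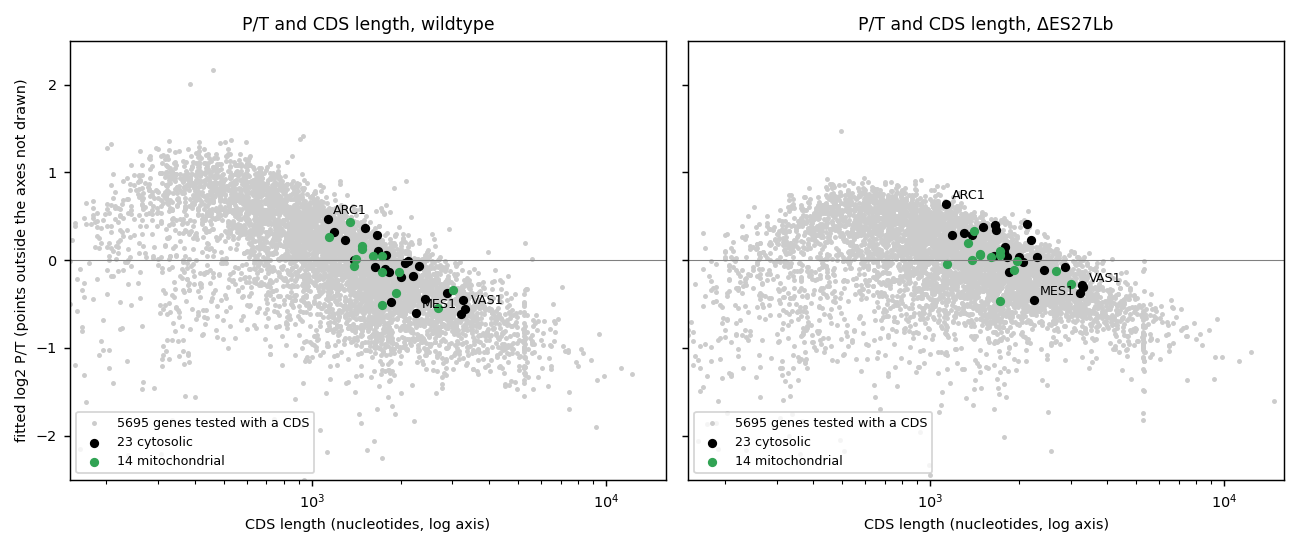
Fitted log2 P/T against CDS length (log axis) in the wildtype (left) and in ΔES27Lb (right) for 5695 tested genes (grey), the 23 cytosolic members (black) and the 14 mitochondrial members (green), which are drawn over their grey points. The members fall with length as the other genes do, and ARC1 has the shortest CDS of all 37.

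The comparison of P/T between the strains gave no call. No gene of 6003 was called by edgeR (0.0%), with or without the block, and DESeq2 called 1 of 6908 genes (0.0145%), not a member. At an unadjusted p of 0.05 there were 46 genes and 0 members, and the smallest p among the members was 0.135 (NAM2, 0.42 ± 0.26, SE, higher in ΔES27Lb). Among the cytosolic members, 22 of 23 (TYS1 was the exception) had a higher fitted P/T in the deletion strain, with a median difference of 0.17 on the log2 scale, against 49.6% of all genes and a median near 0. The mitochondrial members had 9 of 14 and 0.06. Without wildtype replicate 1 the cytosolic count was 13 of 23 and the median 0.02, so the count rested on that culture. With the CDS length offset it was 18 of 23 (median 0.05), and the mitochondrial members had 4 of 14 (-0.06). The direction over all genes differed by length. The 3474 genes under 1500 nucleotides had a median difference of -0.12, against which 3 of 4 cytosolic members of that length were higher in ΔES27Lb (0.13). At greater length 846 of 1185 genes from 1500 up to 2250 nucleotides (median 0.15) and 818 of 1036 longer genes (0.18) were higher, as were 12 of 12 and 7 of 7 cytosolic members.

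For 3 members the P/T of all ΔES27Lb cultures lay above that of all wildtype cultures. They were ARC1, DED81 and MSF1, or 2 of 23 cytosolic and 1 of 14 mitochondrial members, against 3.25% of all genes, and no member lay below, against 4.25% of genes. MSF1 (YPR047W, the mitochondrial phenylalanine enzyme) had 0.01, 0.01 and 0.02 in the wildtype and 0.58, 0.12 and 0.18 in ΔES27Lb. The fitted differences were 0.32 ± 0.41 for MSF1, 0.17 ± 0.35 for ARC1 and 0.12 ± 0.38 for DED81 (SE, adjusted p = 1.0 each by edgeR). Each of the 3 differences was smaller than its error.

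**Figure D5:**
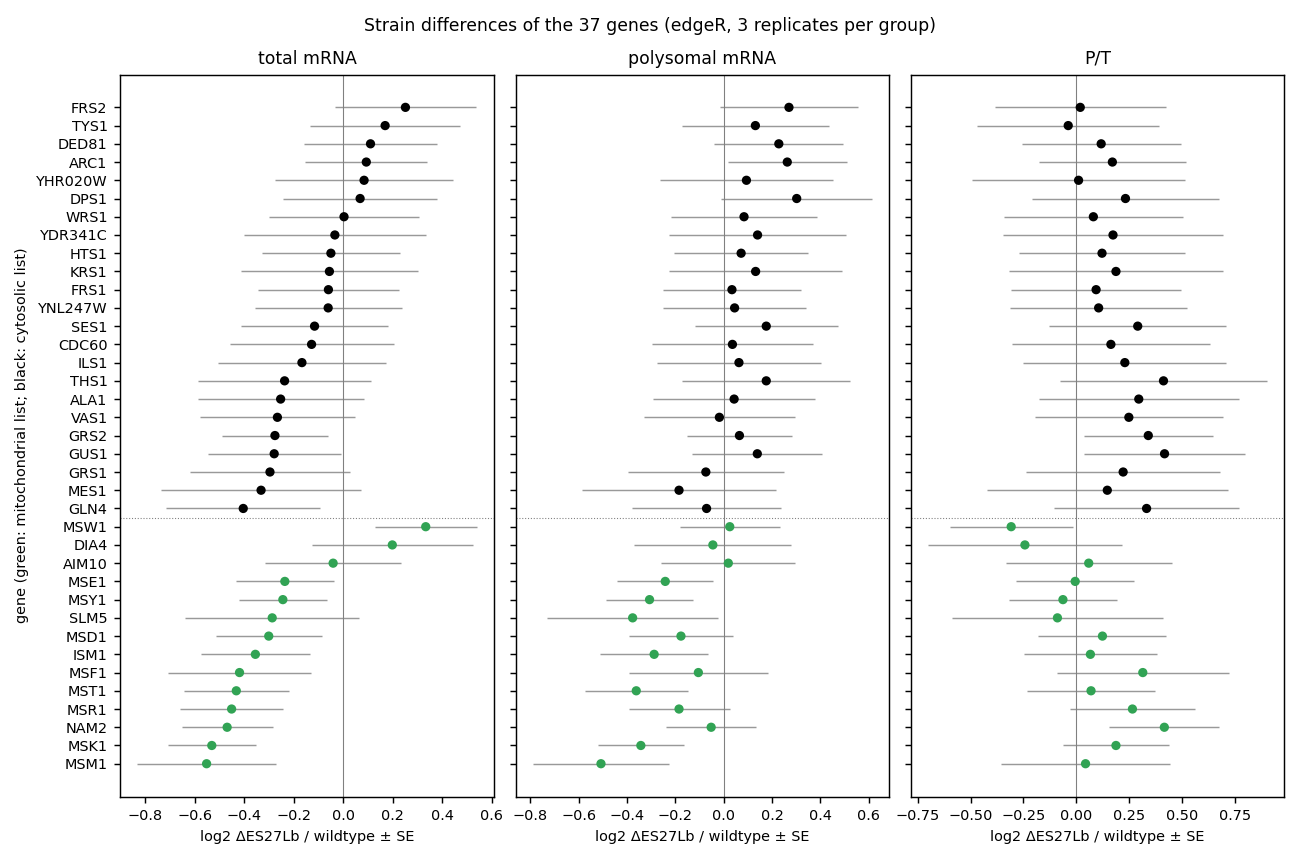
Fitted log2 difference of ΔES27Lb from wildtype (± SE, 3 replicates per group) in total mRNA, polysomal mRNA and P/T for each of the 37 genes, ordered within each list by the difference in total mRNA. In total mRNA 12 of 14 mitochondrial genes (green) lie left of 0.

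In total mRNA, most mitochondrial members were at a lower level in ΔES27Lb than in the wildtype, though none passed the threshold. The fitted difference was negative for 12 of 14, with a median of -0.33 on the log2 scale, and positive for MSW1 (tryptophan, 0.33) and DIA4 (0.20). The cytosolic members had 16 of 23 negative and a median of -0.06, which turned to 9 of 23 and 0.05 with the CDS length offset (11 of 14 and -0.23 for the mitochondrial members). Of all genes 50.0% were positive. No gene was called by edgeR (0.0%), with or without the block or with block and length offset. Here the block was a term for the replicate number, shared by both strains and both pools. DESeq2 called 4 of 6908 genes (0.0579%) and 0 members. At an unadjusted p of 0.05 there were 351 genes and 2 members, MSK1 and NAM2. The summed level of the mitochondrial members in total mRNA did not overlap between the strains (345.9 to 464.2 CPM in the wildtype and 294.4 to 333.9 in ΔES27Lb), while that of the cytosolic members did. This held after TMM scaling only. As shares of raw counts the mitochondrial sums overlapped, at 0.0388% to 0.0597% in the wildtype and 0.0263% to 0.0399% in ΔES27Lb.

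MSK1 (YNL073W), the mitochondrial lysine enzyme, which is also known to aid the import of a cytosolic lysine tRNA, had 33.94, 26.22 and 36.98 CPM per kb in wildtype total mRNA and 22.41, 22.85 and 21.96 in ΔES27Lb. The ΔES27Lb libraries were close together and all below the wildtype. The difference was -0.53 ± 0.18 on the log2 scale (SE, adjusted p = 0.747 by edgeR). NAM2 had 16.88, 14.86 and 18.46 against 11.05, 13.54 and 11.66, and a difference of -0.47 ± 0.18 (adjusted p = 0.747). MST1 (YKL194C, threonine) had 19.1, 15.15 and 23.06 against 14.77, 13.91 and 13.81, and MSY1 (YPL097W, tyrosine) 17.49, 16.95 and 19.04 against 14.24, 15.63 and 15.29. In these 4 genes the strains did not overlap. That is 4 of 14 mitochondrial and 0 of 23 cytosolic members, against 3.02% of all genes below and 5.05% above.

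The other mitochondrial members overlapped between the strains. MSM1 had 17.87, 11.01 and 12.1 CPM per kb in the wildtype and 11.98, 9.704 and 6.198 in ΔES27Lb (log2 difference -0.55 ± 0.28, SE). MSR1 had 20.94, 15.36 and 17.53 against 11.73, 15.8 and 11.82 (-0.45 ± 0.21). Fitted differences of MSF1, ISM1, MSD1, SLM5, MSE1 and AIM10 ran from -0.42 to -0.04. MSW1 went the other way, with 11.78, 11.97 and 15.99 against 19.48, 15.28 and 15.33. With each of the 6 cultures left out in turn the mitochondrial count stayed between 10 and 13 of 14 and its median between -0.41 and -0.21, whereas the cytosolic count of negative members ran from 7 to 22 of 23. The 22 came without wildtype replicate 3, in which the cytosolic sum was lowest, and the 7 without replicate 1.

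In polysomal mRNA 12 of 14 mitochondrial members were again lower in ΔES27Lb (median -0.21), while 19 of 23 cytosolic members were higher (0.08), beside 48.8% of all genes higher. No gene was called by edgeR (0.0%), and DESeq2 called 4 of 6908 (0.0579%) and 0 members. There were 73 genes and 0 members at an unadjusted p of 0.05. MSM1 had 10.48, 9.61 and 8.727 CPM per kb in the wildtype and 8.028, 5.206 and 7.006 in ΔES27Lb (-0.51 ± 0.28, SE, adjusted p = 1.0 by edgeR). MSK1 had 26.52, 29.13 and 32.98 against 24.59, 21.51 and 23.77 (-0.34 ± 0.18, adjusted p = 1.0). In both the strains did not overlap, which is 2 of 14 mitochondrial members against 2.6% of all genes, and no member lay wholly above, against 3.02% of genes. Without wildtype replicate 3 only 6 of 23 cytosolic members were higher (median -0.12), and the mitochondrial count was 10 of 14 lower.

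Related genes give a frame for these values. The 20 amino acid biosynthesis genes under Gcn4 were higher in ΔES27Lb total mRNA for 18 of 20 (median 0.44 on the log2 scale, 7 at an unadjusted p of 0.05 and 0 called) and in polysomal mRNA for 19 of 20 (0.37). Of the 9 cytosolic members with a TGACTC match, 2 of 9 were higher in total mRNA (-0.06) and 8 of 9 in polysomal mRNA (0.09), while the 14 without a match had 5 of 14 and 11 of 14. The difference between the members with a match and the biosynthesis genes was not tested. The count of the members with a match in total mRNA changed with single cultures left out, to 7 of 9 (0.10) without wildtype replicate 1 and 0 of 9 (-0.37) without wildtype replicate 3, while that of the biosynthesis genes stayed between 16 and 20 of 20. In polysomal mRNA the members with a match had 1 of 9 (-0.17) without wildtype replicate 3. The 79 mitochondrial ribosomal protein genes, whose products use the tRNAs that the mitochondrial enzymes charge, were higher in ΔES27Lb total mRNA for 40 of 79 (0.01). This count was 12 of 79 (-0.20) without wildtype replicate 1, 10 of 79 (-0.18) without ΔES27Lb replicate 3, 54 of 79 (0.18) without wildtype replicate 3 and 4 of 79 (-0.24) with the CDS length offset.

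In P/T the mitochondrial ribosomal proteins stood above the mitochondrial synthetases, with medians of 0.67 in the wildtype and 0.54 in ΔES27Lb, and 57 and 21 of 79 called with the block, which calls 32.5% and 6.96% of all genes. The lists in this paragraph were not matched for CDS length, with which P/T fell over all genes (rho -0.66 and -0.42). The median CDS was 1669.5 nucleotides for the mitochondrial synthetases and 1233 for all tested genes with a CDS. The 9 cytosolic elongation factors had medians of 0.38 in the wildtype and 0.41 in ΔES27Lb. The 14 charging partners had -0.24 and 0.03, with 4 and 2 of 14 called with the block, against the same 32.5% and 6.96%. This list holds the mitochondrial amidotransferase HER2, PET112 and GTF1, the formyltransferase FMT1, the CCA-adding enzyme CCA1, the tRNA exporter LOS1, the elongation factor genes TEF1 and TEF2 (which are in both of these lists and share most of their sequence) and TUF1, the deacylase DTD1 and the Gcn pathway genes GCN1, GCN2, GCN20 and GCN4.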

How the data were processed

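Total and polysomal poly(A) mRNA of both strains was measured by RNA-seq (TruSeq stranded kit, HiSeq3000). Per the study's methods, the authors aligned reads to strain BY4742 with HISAT2 and used featureCounts for counting. The authors deposited these counts of reads per gene unnormalized, 1 file per library. Versions, strand setting and the handling of reads that match several places are not given in the sources used here. Groups came from the labels. Gene names, CDS and promoters came from RefSeq R64 (6048 IDs matched).

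Counts were fitted with edgeR 4.0.16 in R 4.3.3 (TMM, default filter, quasi-likelihood test, 1 mean per group over 12 libraries, no block). P-values were adjusted by the Benjamini-Hochberg method over 6003 genes at a threshold of 0.05. Library totals were 15050764 to 21532842. P/T of a culture used a prior count of 0.5. Alternatives were DESeq2 1.42.0, its size factors, other filters, a replicate block, an offset for CDS length (loess, span 0.5), fewer libraries and leaving out each culture. In the strain differences of total and of polysomal mRNA the block was a term for the replicate number. It was shared by both strains and both pools, a link that the labels do not state. In the block for P/T and its strain difference, and in every P/T of a culture, total and polysomal libraries that share a number are taken as a pair, which the labels do not state. Their deviations from the group means correlated at 0.199 (ΔES27Lb replicate 2) to 0.899 (wildtype replicate 3) over 5190 genes. Polysomal libraries of different strains with the same number reached 0.547, so these correlations do not settle the pairing. The code was tested on simulated data.

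The members, gene lists and tests were chosen with earlier results of these data known. Library values are given for members called in a comparison, for up to 5 members per direction with the largest log2 change of 1 sign in all 3 cultures (P/T) or without overlap of the strains, and for the complexes, paralogs and pairs of enzymes. MSM1, MSR1 and MSW1 in total mRNA were chosen after their values were seen.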

Additional observations from a re-analysis of the deposited data

How the results depend on the processing

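The replicate block raised the members called for P/T from 0 to 4 in the wildtype and to 1 in ΔES27Lb (all genes: 7 to 1950 and 0 to 418), and no call of a member was gained in the strain differences. With the length offset the median log2 P/T was 0.223 for cytosolic members in ΔES27Lb and 0.164 for mitochondrial members in the wildtype. With the replicate block and the offset these were 0.217 and 0.174, and the cytosolic wildtype median was 0.216. VAS1 changed sign in the wildtype (0.044 with the offset, 0.062 with block and offset) and in ΔES27Lb (0.133 and 0.126), as did ILS1 (0.054 and 0.032) and ISM1 (0.103 and 0.103) in ΔES27Lb. The offset takes out the trend by construction. With single cultures left out, the cytosolic wildtype median ran from -0.145 to 0.157 and the ΔES27Lb median from 0.001 to 0.138, and the mitochondrial ΔES27Lb median from -0.126 to 0.085. The cytosolic members with a higher P/T in ΔES27Lb ran from 13 to 23 of 23, an alternative chosen after seeing the data, and those with lower total mRNA from 7 to 22. DESeq2, its size factors, both filters and fits of only the libraries compared added no member call. Strain differences pair less clearly: numbers correlated at 0.181 to 0.429 in total and -0.101 to 0.547 in polysomal mRNA.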
